A study of Mus musculus with 28 samples.

Results

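Type I interferon-stimulated genes were followed as a set of 36 listed genes, found by symbol among the 55487 genes of the deposited tables with 1 gene ID each. The set holds IFIT and OAS genes, the ISG15 system, sensors of foreign nucleic acid, antiviral effectors and part of the signalling machinery, and all 36 passed the filter on low counts in both experiments. Spleens of C57BL/6 mice gave the sorted dendritic cells, whose RNA was sequenced in 28 libraries that fall into 14 groups of 2. The study asked how a changed enhancer of Irf8 alters the separation of conventional dendritic cells (cDC) into their type 1 (cDC1) and type 2 (cDC2) lineages, and the labels also name a hybrid cDC. The sources used here give neither the age of the mice nor the gates of the sort.

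Experiment 1 held hybrid cells of Irf8 +32H/H and Irf8 +32H/+ mice, and cDC1 and cDC2 of Irf8 +32H/H, Irf8 +32H/+ and WT mice. The genotypes Irf8 +32H/H and Irf8 +32H/+, here H/H and H/+, carry the altered +32 kb enhancer of Irf8 on both copies or on 1. Experiment 2 held hybrid cells of Irf8 +32H/H Nfil3-/-, Irf8 +32H/H Zeb2 -165d123 and Irf8 +32H/H mice, and cDC1 of Irf8 +32H/H Nfil3-/-, Irf8 +32H/H and WT mice. Every Nfil3-/- and Zeb2 -165d123 group therefore also carried 2 altered Irf8 enhancers, and the H/H group of the same cell type is its control. The labels give the alleles as those of the mouse and name no Cre or other driver that would limit them to dendritic cells.

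Type I interferons bind the receptor IFNAR, and the kinases JAK1 and TYK2 then activate STAT2, which enters a complex with IRF9 called ISGF3. ISGF3 binds interferon-stimulated response elements (ISRE) in the promoters of these genes, whose products recognise viral RNA, block its translation or replication, and restrain further signalling. Many interferon-stimulated genes are also transcribed at a low level without infection, and IRF family proteins other than IRF9, IRF8 among them, can bind related elements.

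As examples, the promoters of 5 of the genes given by value below show the element itself, which not every such gene has in its window. The sequences run from 250 bases before the RefSeq start of transcription to 50 bases after it (GRCm38.p6), 5′ to 3′ on the gene's own strand, and capitals mark matches to GAAA-NN-GAAA, the core of an ISRE with 2 free bases (N) between its repeats, or to its reverse complement TTTC-NN-TTTC. They lie at chr4:156200769-156201068 for Isg15 (minus strand), chr19:34640639-34640938 for Ifit1 (plus strand), chr19:34583279-34583578 for Ifit3 (plus strand), chr19:34601919-34602218 for 1 of the 2 listed starts of Ifit1bl1 (minus strand) and chr5:120907476-120907775 for Oas1a (minus strand).
Isg15: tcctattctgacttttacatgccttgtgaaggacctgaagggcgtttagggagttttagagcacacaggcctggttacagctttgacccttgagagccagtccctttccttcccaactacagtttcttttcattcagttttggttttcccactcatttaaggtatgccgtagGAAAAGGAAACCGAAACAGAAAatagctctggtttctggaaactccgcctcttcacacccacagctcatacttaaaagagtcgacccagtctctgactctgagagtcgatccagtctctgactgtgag
Ifit1: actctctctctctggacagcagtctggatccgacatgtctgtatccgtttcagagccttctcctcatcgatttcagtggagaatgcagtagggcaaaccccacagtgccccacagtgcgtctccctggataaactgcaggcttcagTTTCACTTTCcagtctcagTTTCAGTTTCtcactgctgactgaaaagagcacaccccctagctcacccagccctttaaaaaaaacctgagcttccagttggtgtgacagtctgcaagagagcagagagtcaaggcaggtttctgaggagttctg
Ifit3: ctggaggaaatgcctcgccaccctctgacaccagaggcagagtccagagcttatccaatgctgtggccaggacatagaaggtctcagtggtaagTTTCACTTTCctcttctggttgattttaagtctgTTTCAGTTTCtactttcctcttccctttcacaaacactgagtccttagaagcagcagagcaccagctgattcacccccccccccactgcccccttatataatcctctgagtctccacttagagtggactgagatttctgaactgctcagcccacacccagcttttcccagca
Ifit1bl1: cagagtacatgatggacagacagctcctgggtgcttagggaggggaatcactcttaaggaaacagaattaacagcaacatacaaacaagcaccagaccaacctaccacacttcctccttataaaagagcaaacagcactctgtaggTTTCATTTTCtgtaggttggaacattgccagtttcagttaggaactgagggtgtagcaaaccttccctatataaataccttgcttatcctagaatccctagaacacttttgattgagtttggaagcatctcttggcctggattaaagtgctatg
Oas1a: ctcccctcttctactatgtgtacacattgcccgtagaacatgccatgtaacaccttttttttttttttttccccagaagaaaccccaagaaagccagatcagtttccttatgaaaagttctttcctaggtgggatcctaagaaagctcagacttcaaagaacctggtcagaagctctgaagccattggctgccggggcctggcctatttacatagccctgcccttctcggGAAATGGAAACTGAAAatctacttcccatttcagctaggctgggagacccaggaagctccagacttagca
In Isg15 3 overlapping matches fill positions -78 to -57 from the start, and in Oas1a 2 overlapping matches begin at -20 and -14. Ifit1 has separate matches that begin at -104 and -85, and Ifit3 has them at -156 and -122.

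RefSeq promoters were found for 26 of the 36 genes, not including Usp18, Mx1, Rtp4 and Zbp1, as 31 sequences. Of these 31, 17 (54.8%) held GAAA-NN-GAAA on either strand, against 3.44% of all 32851 RefSeq mouse promoters of the same length. The composite ETS-IRF element GGAA-NN-GAAA, which cannot begin at the same base as the ISRE core, was in 9.68% of the 31 and in 2.72% of all promoters, and the STAT element TTC-NNN-GAA was in 19.4% of the 31 and 8.30% of all. Of the 26 genes, Cmpk2, Dtx3l, Herc6, Ifi35, Ifi44, Ifit2, Isg20, Lgals3bp, Oasl1, Oasl2 and Xaf1 had no ISRE core in these windows. A match describes letters in a window and is not a measured binding site.

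By position the genes form a few families. On GRCm38, with coordinates from GENCODE release M21, Ifit2, Ifit3, Ifit1bl1, Ifit3b and Ifit1 lie in that order on chromosome 19 between bases 34550694 and 34650009, and Oas2, Oas3, Oas1g and Oas1a on chromosome 5 between 120730333 and 120907521. Ifit3 and Ifit3b, and Oas1a and Oas1g, are related genes of the same clusters, and an estimate of counts may split reads between them. How alike their transcripts are was not measured here. Each gene is counted separately in the tallies below, although the members of a pair may not be independent. Dtx3l and Parp9 overlap on opposite strands on chromosome 16, and since no source used here says whether the counting used strand, their reads cannot be told apart in the overlap.

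Library totals were 23.4 to 38.2 M estimated reads in experiment 1 and 17.5 to 22.7 M in experiment 2, so that 3 counts corresponded to 0.0728 to 0.172 counts per M (CPM). The cDC1 and cDC2 libraries bore their markers: 10 cDC1 genes summed to 3208 to 5458 CPM over cDC1 libraries, 1740 to 4105 CPM in hybrid libraries and 460 to 560 CPM in cDC2 libraries. The 10 cDC2 genes summed to 26.2 to 564, 861 to 2034 and 1278 to 1653 CPM in the same order. In the cDC1 sum the H/H Nfil3-/- hybrid libraries (3812 to 4105 CPM) exceeded H/H cDC1 of experiment 2 (3208 to 3382 CPM). The libraries also split by Xist, the RNA made from the inactive X chromosome, on which the labels are silent. In experiment 1 replicate 2 of each of the 8 groups held it (120 to 215 CPM) and replicate 1 of each did not (at most 0.0349 CPM), so replicate number and Xist cannot be told apart there. In experiment 2 only replicate 2 of the Nfil3-/- cDC1, Nfil3-/- hybrid and Zeb2 -165d123 hybrid groups held it (169 to 302 CPM).

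The mean log2 CPM of the 36 genes gives the overall order of the groups, as a description of these libraries. In experiment 1 it was 5.50 and 5.83 in H/H hybrid cells, 5.44 and 5.85 in H/+ hybrid cells, 4.75 and 5.02 in H/H cDC1, 3.90 and 4.23 in H/+ cDC1 and 2.96 and 3.11 in WT cDC1. The cDC2 groups lay together, at 4.93 and 5.17 in H/H, 4.72 and 5.14 in H/+ and 4.80 and 5.12 in WT cDC2. WT cDC1 were the lowest of all groups and the H/+ and H/H cDC1 libraries stood between them and the cDC2 libraries or among these, while both hybrid groups were above every other group. In experiment 2 the value was 5.73 and 5.92 in H/H Nfil3-/- hybrid cells, 5.29 and 5.95 in hybrid cells with Zeb2 -165d123, 5.50 and 5.40 in H/H hybrid cells, 5.26 and 5.51 in Nfil3-/- cDC1, 4.80 and 4.80 in H/H cDC1 and 3.0 and 2.85 in WT cDC1. The range of the Zeb2 -165d123 hybrid libraries took in those of both other hybrid groups, and H/H cDC1 stood apart from WT cDC1 by more than the spread of either.

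**Figure D1:**
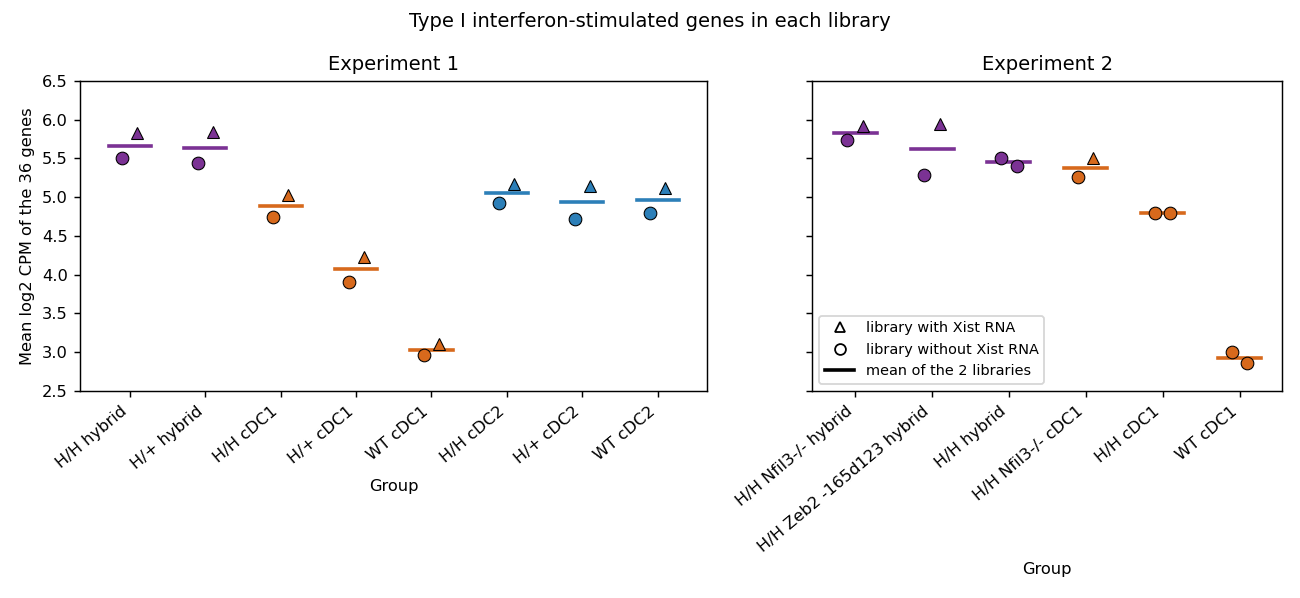
Mean log2 CPM of the 36 genes (vertical axis) in each library by group, for experiment 1 (left) and experiment 2 (right); triangles are libraries with Xist RNA, circles are libraries without it, and lines are means of 2 libraries. WT cDC1 are lowest in both experiments (means 3.03 and 2.93), and hybrid groups are highest (5.64 to 5.67 and 5.45 to 5.83).

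Gene by gene, a hybrid group had the highest mean for 27 of 36 genes in experiment 1 and 32 of 36 in experiment 2, and WT cDC1 had the lowest for 29 and 32. Of the other 9 in experiment 1, Mx1, Trim30a and Ifi35 had their highest mean in H/H cDC1, and Ifit1, Isg20, Rtp4, Oas2, Stat2 and Ddx58 had it in a cDC2 group. These counts of highest and lowest means were not made over all tested genes, and experiment 2 held no cDC2 group. They describe the 36 genes and are not set against a background. Per kb of exon, the median over the 36 genes was 15.3 CPM per kb in H/H hybrid cells, 15.2 in H/+ hybrid cells, 9.77 in H/H cDC1, 5.99 in H/+ cDC1, 2.37 in WT cDC1 and 7.84 in WT cDC2. On the same scale of levels Ifi27l2a, a gene strongly induced by interferon, led in H/H hybrid cells (274 CPM per kb) and in WT cDC2 (164 CPM per kb), and Ifi35 led in WT cDC1 (95.2 CPM per kb). The heat map of differences from WT cDC1 shows the order for each gene.

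**Figure D2:**
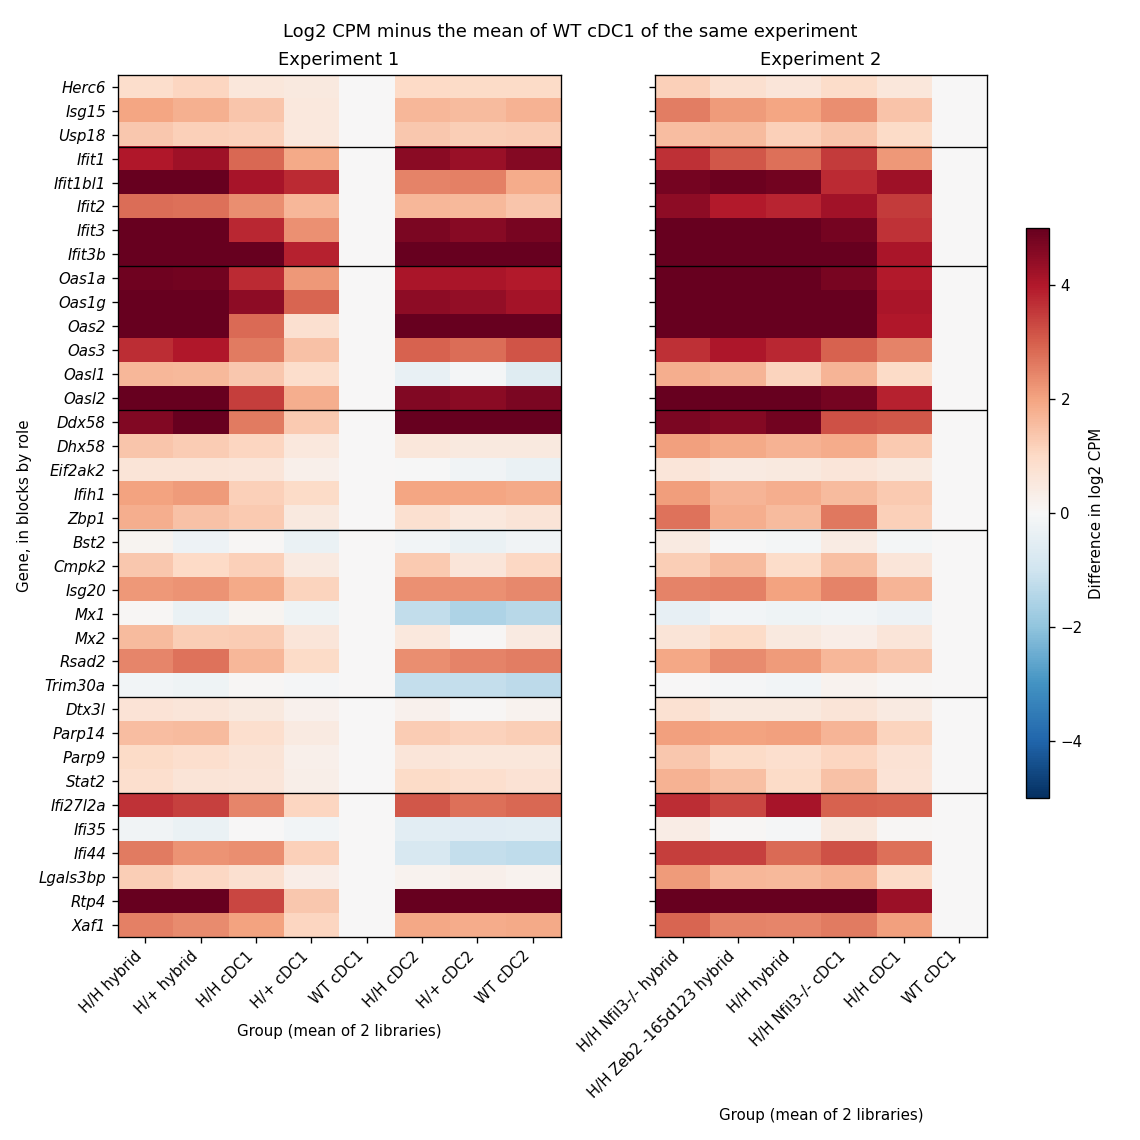
Difference in mean log2 CPM from WT cDC1 of the same experiment for each of the 36 genes (rows, in blocks by role) and group (columns; 2 libraries each), with colours that stop at differences of 5 in either direction. The IFIT and OAS blocks are darkest, Mx1, Bst2, Trim30a and Ifi35 stay pale or turn blue, and Oasl1, Mx1, Trim30a and Ifi44 are lower in WT cDC2 than in WT cDC1.

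In WT mice most of the genes were low in cDC1. Ifit1, whose product binds foreign RNA ends and blocks their translation, had 1.38 and 1.05 CPM in WT cDC1 and 27.3 and 34.1 CPM in WT cDC2. Ddx58 (RIG-I), a sensor of viral RNA, had 1.02 and 1.05 CPM in WT cDC1, against 41.6 and 50.9 CPM in WT cDC2. Neither gene's groups overlapped. In RNA from sorted bulk cells, fewer cells with a transcript and less of it per cell cannot be told apart. By edgeR's quasi-likelihood test with Benjamini-Hochberg adjustment over all genes, here called with an adjusted p below 0.05, 4 of 36 genes were higher and 26 lower in WT cDC1 than in WT cDC2, where 20.5% of all tested genes were higher and 23.4% lower. The median log2 fold change of the 36 was -1.34, against -0.07 for all genes.

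The 5 IFIT genes were all lower in WT cDC1 (median log2 fold change -4.67), as were the 3 genes of the ISG15 system (median -1.25) and 5 of the 6 OAS genes. The largest differences were those of Rtp4, -7.38 ± 0.46 (SE), Ifit3b, -6.92 ± 0.57, and Oas2, -6.74 ± 0.52, which had 24, 6 and 14 counts in all in the 2 WT cDC1 libraries and so rest on few reads. The 4 genes that went the other way were Mx1, Trim30a, Oasl1 and Ifi35. Mx1, a gene of the dynamin-like GTPase family, had 53.1 and 50.9 CPM in WT cDC1 and 18.1 and 21.8 CPM in WT cDC2. Its groups did not overlap (log2 fold change 1.38 ± 0.19, edgeR adjusted p = 4.58e-05). The RNA level does not show whether the Mx1 allele of these mice makes a working protein. The annotation lists Mx2 as a polymorphic pseudogene.

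With 1 altered copy of the enhancer, part of the set was higher in cDC1. Ifit1bl1, a mouse relative of Ifit1, had 33.8 and 23.4 CPM in H/+ cDC1 and 2.40 and 1.77 CPM in WT cDC1. Oas1a, which makes the oligoadenylates that switch on RNase L, had 13.1 and 20.3 CPM in H/+ cDC1 and 4.01 and 3.21 CPM in WT cDC1. The groups did not overlap in either gene, with log2 fold changes of 3.79 ± 0.30 (adjusted p = 7.57e-05) and 2.21 ± 0.42 (adjusted p = 0.037). In all 12 of 36 genes were higher and 0 lower in H/+ cDC1, against 1.16% and 0.312% of all tested genes, and the median of the 36 was 0.86 with a median of 0.00 for all genes.

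Of the 12, 4 were IFIT genes (Ifit1, Ifit1bl1, Ifit2 and Ifit3b), 3 OAS genes (Oas1a, Oasl1 and Oasl2) and 2 RNA sensors (Ddx58 and Ifih1), with Rsad2, Usp18 and Xaf1. None of Stat2, Parp9, Parp14 and Dtx3l was called, and their log2 fold changes were 0.21 to 0.45. With Xist as a term in the fit the count was 24, for which the share of all tested genes was not kept. It was 4 without WT cDC1 replicate 1 and 5 without WT cDC1 replicate 2. Within libraries of 1 Xist state, the mean log2 CPM of the set in H/+ cDC1 exceeded that in WT cDC1 by 0.946 without Xist and 1.12 with it. The 10 cDC2 markers summed to 114 to 140 CPM in H/+ cDC1 and 32.9 to 36.9 CPM in WT cDC1, and the 8 B-cell markers to 81.0 to 104 CPM in H/+ cDC1 and 39.9 to 41.8 CPM in WT cDC1; their part in the result was not tested.

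With both copies altered, most of the set was higher in cDC1, in both experiments. The ISG15 system comes first by role. Isg15, a ubiquitin-like protein attached to other proteins, had 36.7 and 49.8 CPM in H/H cDC1 and 14.8 and 18.4 CPM in WT cDC1 of experiment 1, and 30.0 and 38.0 CPM in H/H cDC1 and 14.2 and 10.8 CPM in WT cDC1 of experiment 2. Usp18, which removes ISG15 and restrains signalling at the interferon receptor, had 146 and 163 CPM in H/H cDC1 and 66.3 and 73.8 CPM in WT cDC1 of experiment 1, and 101 and 120 CPM in H/H cDC1 and 60.9 and 53.2 CPM in WT cDC1 of experiment 2. Every H/H library was above every WT library for both genes. The log2 fold changes were 1.38 ± 0.30 and 1.44 ± 0.20 for Isg15 (adjusted p = 0.0239 and 0.000332) and 1.14 ± 0.10 and 0.96 ± 0.20 for Usp18 (adjusted p = 8.1e-06 and 0.0108).

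By median fold change the IFIT and OAS genes led the roles. Ifit3, of the same family as Ifit1, had 22.9 and 34.5 CPM in H/H cDC1 and 1.45 and 2.78 CPM in WT cDC1 of experiment 1, and 24.6 and 28.4 CPM in H/H cDC1 and 2.57 and 1.68 CPM in WT cDC1 of experiment 2. Ifit1bl1 had 38.4 and 34.8 CPM in H/H cDC1 and 2.40 and 1.77 CPM in WT cDC1 of experiment 1, and 55.8 and 58.6 CPM in H/H cDC1 and 2.62 and 3.23 CPM in WT cDC1 of experiment 2. For both genes the groups were far apart. The log2 fold changes were 3.74 ± 0.47 and 3.64 ± 0.42 for Ifit3 (adjusted p = 0.00155 and 0.00103) and 4.14 ± 0.30 and 4.29 ± 0.23 for Ifit1bl1 (adjusted p = 4.74e-06 and 1.64e-08). All 5 IFIT genes were called higher in both experiments, with a median log2 fold change of 3.74 in experiment 1 and 3.64 in experiment 2.

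Oas1a had 37.1 and 62.9 CPM in H/H cDC1 and 4.01 and 3.21 CPM in WT cDC1 of experiment 1, and 46.4 and 51.6 CPM in H/H cDC1 and 3.52 and 2.62 CPM in WT cDC1 of experiment 2. Oasl2, a relative of the OAS enzymes, had 23.7 and 27.7 CPM in H/H cDC1 and 2.28 and 2.23 CPM in WT cDC1 of experiment 1, and 30.2 and 28.5 CPM in H/H cDC1 and 2.23 and 1.68 CPM in WT cDC1 of experiment 2. Neither gene's groups overlapped, and the log2 fold changes were 3.80 ± 0.43 and 4.0 ± 0.23 for Oas1a and 3.51 ± 0.37 and 3.90 ± 0.22 for Oasl2. Of the 6 OAS genes 5 were called higher in each experiment, all but Oas3 in experiment 1 (2.63 ± 0.62, adjusted p = 0.0508) and all but Oasl1 in experiment 2 (0.94 ± 0.26, adjusted p = 0.0518). The fitted changes of Ifit3b (5.99 and 4.36), Oas1g (4.68 and 4.28), Oas2 (3.07 and 4.72) and Rtp4 (3.57 and 4.87) rest on 6 to 24 counts over the WT cDC1 libraries of experiment 1 and 4 to 21 in experiment 2.

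Among the sensors, Ddx58, Ifih1 (MDA5, a sensor of long double-stranded RNA), Dhx58 (their regulator LGP2) and Zbp1, a sensor of Z-form nucleic acid, were called higher in both experiments, with log2 fold changes of 1.09 to 2.67 in experiment 1 and 1.19 to 3.25 in experiment 2. Eif2ak2 (PKR), a kinase that halts translation when it binds double-stranded RNA, had 41.4 and 43.8 CPM in H/H cDC1 and 23.4 and 33.9 CPM in WT cDC1 of experiment 1 (0.57 ± 0.21, adjusted p = 0.189), and was called in experiment 2 only (0.51 ± 0.14, adjusted p = 0.036). The 4 signalling genes Stat2, Parp9, Parp14 and Dtx3l were called in both experiments, with log2 fold changes of 0.49 to 0.85 and 0.46 to 1.13. Stat2, a subunit of ISGF3, had 107 and 95.8 CPM in H/H cDC1 and 70.5 and 61.5 CPM in WT cDC1 of experiment 1.

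The antiviral effectors were split. Rsad2 (viperin), an enzyme that makes a chain-terminating nucleotide, had 11.6 and 13.4 CPM in H/H cDC1 and 3.85 and 3.86 CPM in WT cDC1 of experiment 1, and it was called higher in both experiments together with Isg20, an exonuclease. Bst2 (tetherin), which holds budding virus at the cell surface, had 45 and 64 CPM in H/H cDC1 and 52.2 and 50.8 CPM in WT cDC1, and the groups overlapped (0.08 ± 0.18, adjusted p = 0.906). Mx1 had 56.3 and 57.3 CPM in H/H cDC1 and 53.1 and 50.9 CPM in WT cDC1 of experiment 1, and 45.2 and 38.4 CPM in H/H cDC1 and 49.1 and 51.0 CPM in WT cDC1 of experiment 2, so its small differences had opposite signs in the 2 experiments (0.13 ± 0.19 and -0.26 ± 0.13). Mx1, Bst2, Trim30a, Ifi35 and Cmpk2 were called in neither. Trim30a and Ifi35 were already high in WT cDC1, at 163 and 171 CPM and at 157 and 172 CPM.

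In all, 27 of 36 genes were higher and 0 lower in H/H cDC1 than in WT cDC1 of experiment 1, against 2.7% higher and 1.47% lower among all tested genes, and 28 were higher and 0 lower in experiment 2, against 4.37% and 1.94%. The experiments are separate libraries, and 24 genes were called in both, 88.9% of the calls of experiment 1 and 85.7% of those of experiment 2. Herc6, Mx2 and Oasl1 were called in experiment 1 only and Eif2ak2, Ifi27l2a, Ifi44 and Oas3 in experiment 2 only, where no test compared the experiments. The median log2 fold change was 1.35 in each, with 0.00 for all genes. With the Xist term 31 and 29 genes were called, and the mean log2 CPM of the set was higher in H/H than in WT cDC1 by 1.79 without Xist and 1.91 with it in experiment 1.

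**Figure D3:**
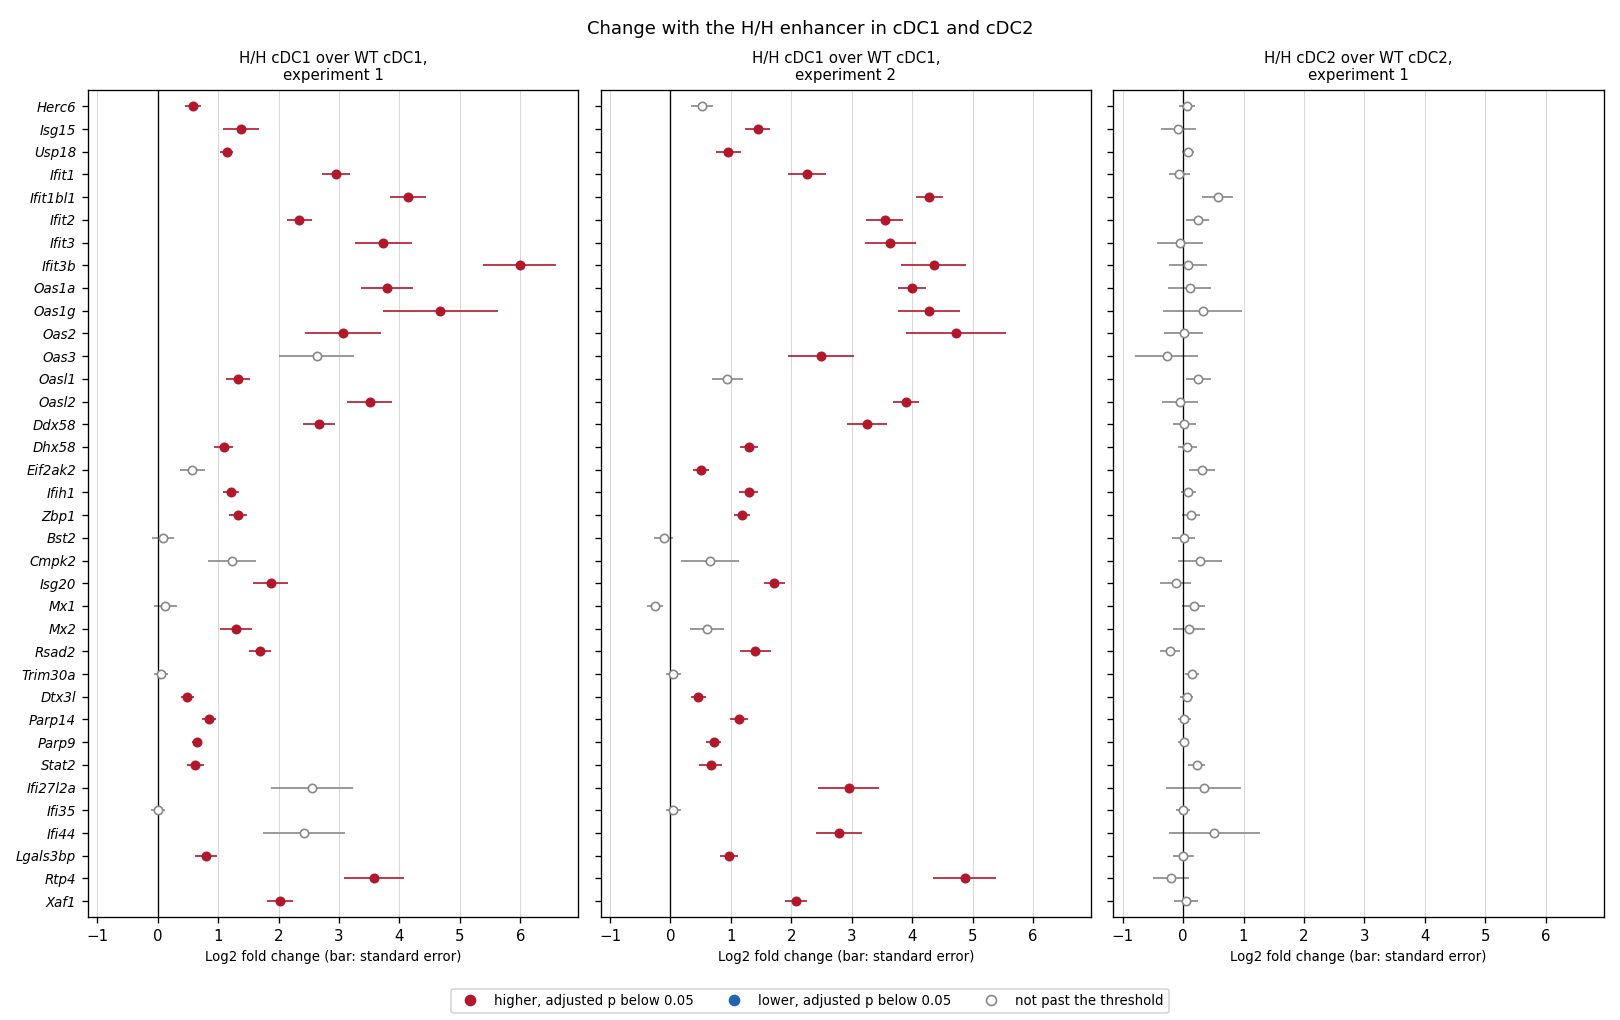
Log2 fold change with its standard error (horizontal axis) of each of the 36 genes in H/H cDC1 over WT cDC1 of experiment 1 (left) and experiment 2 (middle) and in H/H cDC2 over WT cDC2 of experiment 1 (right), 2 libraries a group; filled points passed an adjusted p of 0.05. In cDC1 27 and 28 points are filled, all to the right of 0, and in cDC2 none is.

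Markers of other cells moved with the enhancer as well. The 10 cDC2 markers summed to 212 to 232 CPM in H/H cDC1 and 32.9 to 36.9 CPM in WT cDC1 of experiment 1, with 1614 to 1653 CPM in WT cDC2, and to 320 to 564 CPM in H/H cDC1 and 26.2 to 30.8 CPM in WT cDC1 of experiment 2. In experiment 1 the cDC2 sum of H/H cDC1 thus lay between those of WT cDC1 and WT cDC2. Experiment 2 held no cDC2 group, so its sums can be set against WT cDC1 only. The 8 B-cell markers summed to 134 to 140 CPM in H/H cDC1 and 39.9 to 41.8 CPM in WT cDC1 of experiment 1. Most of the B-cell sum was Ms4a1 (109 to 113 CPM in H/H and 23.3 to 26.0 CPM in WT cDC1). The 12 plasmacytoid markers summed to 87.1 to 92.3 CPM in H/H and 78.1 to 87.5 CPM in WT cDC1, with Klk1 at 0 in both, and the 12 monocyte and macrophage markers to 435 to 441 CPM in H/H and 605 to 719 CPM in WT cDC1. The part of these cells in the change of the 36 genes was not tested.

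Between the altered genotypes, a few genes were higher in cDC1 with 2 altered copies than with 1. Ddx58 had 5.69 and 7.58 CPM in H/H cDC1 and 2.13 and 3.32 CPM in H/+ cDC1, and Zbp1 had 35.7 and 39.6 CPM in H/H cDC1 and 19.2 and 22.7 CPM in H/+ cDC1. Usp18 had 146 and 163 CPM in H/H cDC1 and 97.9 and 104 CPM in H/+ cDC1. No library of one genotype lay within the other's range for these genes. These 3 of 36 were called higher in H/H than in H/+ cDC1 and 0 lower, against 0.218% and 0.0624% of all tested genes, with log2 fold changes of 1.28 ± 0.23, 0.84 ± 0.15 and 0.61 ± 0.10. The fold change was positive for all 36 genes (median 0.70, against 0.00 for all genes), and 24 had an unadjusted p below 0.05. Neither that count nor the counts of the alternative fits were made over all tested genes. With the Xist term 22 genes were called, DESeq2 called 12, and none was called without H/H cDC1 replicate 1, H/H cDC1 replicate 2 or H/+ cDC1 replicate 1.

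A scale from the WT cDC1 mean (0%) to the WT cDC2 mean (100%) in log2 CPM places the altered cells for the 21 genes called at least 2-fold lower in WT cDC1. Since the WT contrast chose these genes, the positions are a description. The last gene inside that limit was Cmpk2 (log2 fold change -1.11) and the first outside it was Herc6 (-0.95). The median position was 44.7% in H/+ cDC1, 79.4% in H/H cDC1, 114% in H/+ hybrid cells and 115% in H/H hybrid cells. In H/H cDC1 5 of the 21 genes were above 100%. Oas2 (43.7%), Rtp4 (46.9%) and Ddx58 (48.1%) had moved least and Ifit2 (169%) and Ifit1bl1 (221%) were beyond the cDC2 level.

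In cDC2 no gene of the set passed the test between genotypes. Ifit1 had 26.5 and 32.2 CPM in H/H cDC2, 21.3 and 29.9 CPM in H/+ cDC2 and 27.3 and 34.1 CPM in WT cDC2, and Usp18 had 183 and 171, 160 and 167, and 169 and 165 CPM in the same order. The 3 genotypes overlapped for Ifit1, and for Usp18 the H/H libraries lay just above the other two genotypes. edgeR called 0 of 36 genes in either direction in H/H against WT cDC2 (0.0686% and 0.0125% of all tested genes were higher and lower) and in H/+ against WT cDC2 (0.0249% and 0%). An unadjusted p below 0.05 was reached by 1 and 2 genes, and DESeq2 called 0 and 0. Without the filter on low counts 1 gene was called higher in H/+ cDC2. The fitted log2 fold changes ran from -0.27 to 0.58 in H/H and from -0.39 to 0.68 in H/+ cDC2, with Ifit1bl1 the highest in H/H cDC2 (0.58 ± 0.26). Irf8 itself was higher in H/H cDC2 (86.2 and 109 CPM) than in WT cDC2 (48.9 and 47.9 CPM).

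The difference between the effects in the 2 cell types was tested as an interaction. The H/H effect was larger in cDC1 than in cDC2 for 18 of 36 genes and smaller for 0, against 1.4% and 0.505% of all tested genes, and the median of the 36 differences was 1.33 on the log2 scale. The 18 were all but Oas1g, Oas2, Oas3 and Oasl1 of the IFIT and OAS genes, all sensors but Eif2ak2, Usp18, Rsad2, Isg20, Parp9, Parp14, Rtp4 and Xaf1. For Ifit1 the difference was 3.02 ± 0.30 (adjusted p = 3.64e-05) and for Oas1a 3.69 ± 0.55 (adjusted p = 0.00737). Within H/H mice, 12 genes were higher and 10 lower in H/H cDC1 than in H/H cDC2 (17.6% and 19.1% of all tested genes), with a median of -0.18. Without H/H cDC1 replicate 1 or H/H cDC2 replicate 1 that total of 22 was 14.

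**Figure D4:**
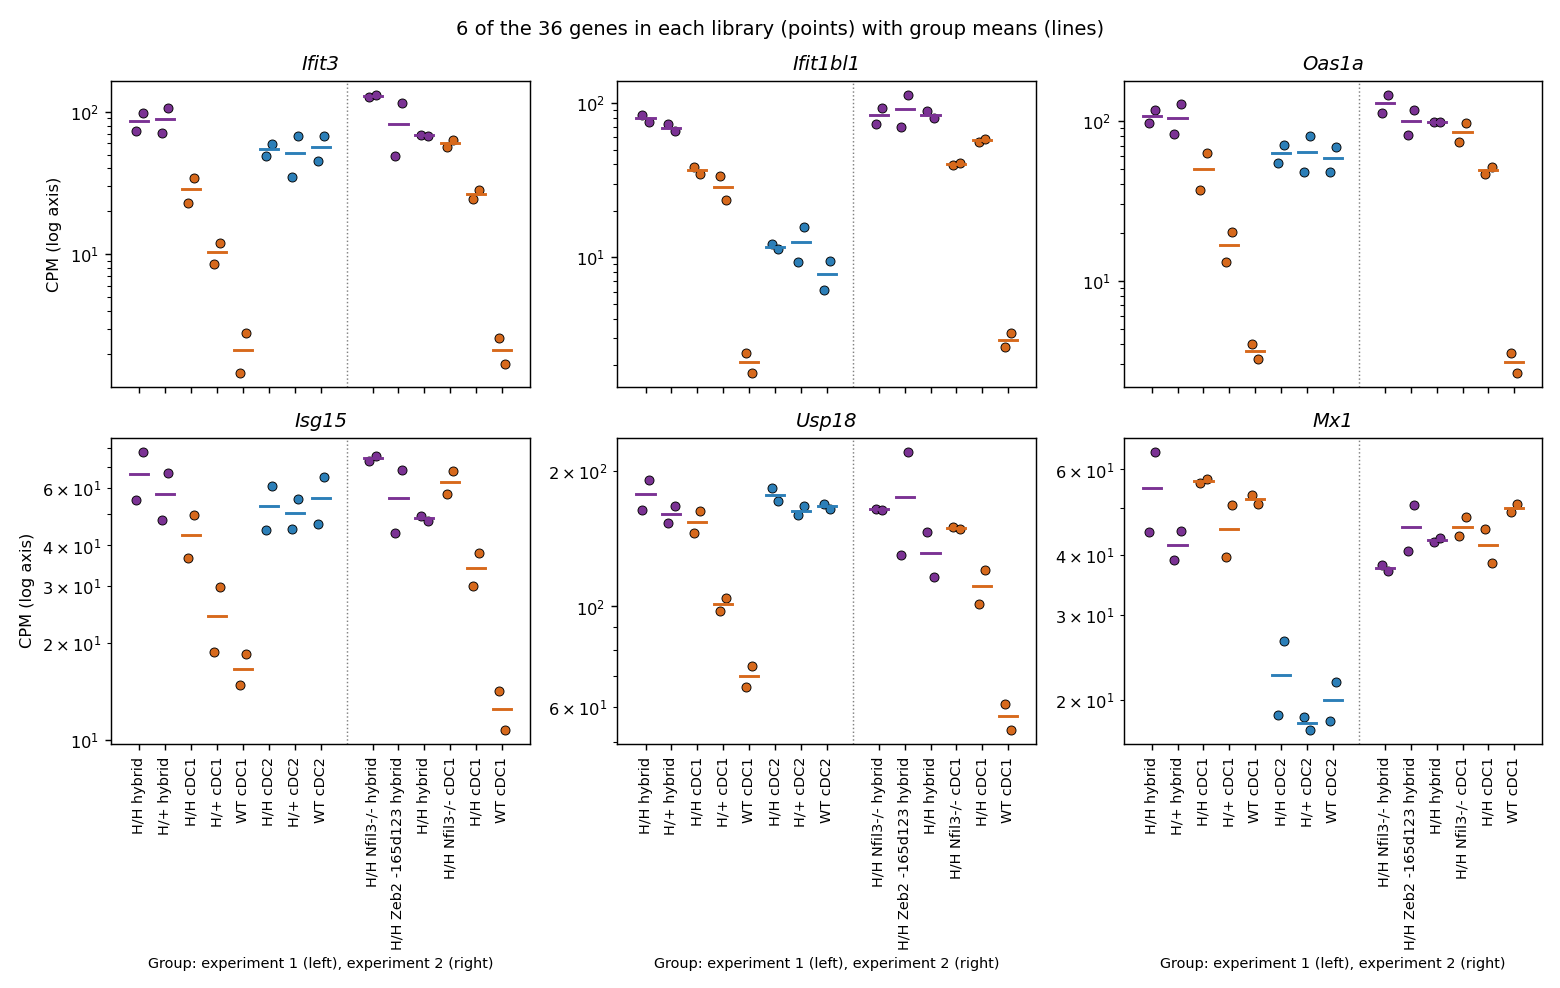
CPM (log axis) of 6 genes in each library (points) with group means (lines), experiment 1 left and experiment 2 right of the dotted line in each panel. Ifit3, Ifit1bl1, Oas1a, Isg15 and Usp18 are higher in hybrid cells than in WT cDC1 (for Ifit3, 73.2 and 98.4 CPM in H/H hybrid cells and 1.45 and 2.78 CPM in WT cDC1 of experiment 1), and Mx1 is lowest in the 3 cDC2 groups.

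In experiment 1 hybrid cells had the highest mean level of the set. Ifit3 had 71.5 and 105 CPM in H/+ hybrid cells, against 8.59 and 12.0 CPM in H/+ cDC1 and 35 and 68 CPM in H/+ cDC2. Oasl2 had 89.7 and 147 CPM in H/+ hybrid cells, 6.93 and 9.58 CPM in H/+ cDC1 and 42.7 and 65.2 CPM in H/+ cDC2. For both genes the hybrid libraries lay above those of either other cell type. Against H/+ cDC1, 27 of 36 genes were higher and 0 lower in H/+ hybrid cells (9.77% and 6.68% of all tested genes, member median 1.11). Against H/+ cDC2, 16 were higher and 0 lower (10.3% and 8.71%, member median 0.62), led by Ifi44 (17.7 and 46.7 CPM in H/+ hybrid cells, 2.03 and 3.28 CPM in H/+ cDC2), Ifit1bl1, Oasl1 and Mx1. That count was 8 without H/+ hybrid replicate 2 and 9 without H/+ cDC2 replicate 1. The 10 cDC2 markers summed to 1642 to 2025 CPM in H/+ hybrid cells and 114 to 140 CPM in H/+ cDC1, and the 12 monocyte and macrophage markers to 1166 to 1478 CPM in H/+ hybrid cells and 419 to 516 CPM in H/+ cDC1; their part in the result was not tested.

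In H/H mice part of the set was again higher in hybrid cells than in cDC1, in both experiments. Rtp4, a chaperone induced by interferon, had 39.6 and 52.6 CPM in H/H hybrid cells and 4.02 and 6.31 CPM in H/H cDC1 of experiment 1, and 32.7 and 27.0 CPM in H/H hybrid cells and 6.20 and 3.89 CPM in H/H cDC1 of experiment 2. Ddx58 had 23.1 and 31.7 CPM in H/H hybrid cells and 5.69 and 7.58 CPM in H/H cDC1 of experiment 1, and 27.4 and 26.3 CPM in H/H hybrid cells and 8.40 and 7.91 CPM in H/H cDC1 of experiment 2. Both genes separated the groups in both experiments, with log2 fold changes of 3.16 ± 0.34 and 2.57 ± 0.28 for Rtp4 and 2.05 ± 0.21 and 1.72 ± 0.25 for Ddx58. In each experiment 12 of 36 genes were higher and 0 lower, against 5.24% and 2.61% of all tested genes in experiment 1 and 7.24% and 5.25% in experiment 2. Ddx58, Ifih1, Ifit3, Ifit3b, Oas2, Oasl2, Parp14 and Rtp4 were called in both, 66.7% of either list. In experiment 1 the count was 21 with the Xist term. In experiment 2 it was 7 without either H/H cDC1 library and 6 without H/H hybrid replicate 1. The 10 cDC2 markers summed to 1365 to 1459 CPM in H/H hybrid cells and 212 to 232 CPM in H/H cDC1 of experiment 1, and the 12 monocyte and macrophage markers to 1124 to 1467 CPM in H/H hybrid cells and 435 to 441 CPM in H/H cDC1, and their part in the result was not tested.

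Against H/H cDC2, 16 genes were higher and 2 lower in H/H hybrid cells (12.9% and 12.5% of all tested genes). The 2 lower ones were Ifit1, with 18.4 and 22.4 CPM in H/H hybrid cells and 26.5 and 32.2 CPM in H/H cDC2 (log2 fold change -0.52 ± 0.18), and Ddx58, with 23.1 and 31.7 CPM in H/H hybrid cells and 44.5 and 49.4 CPM in H/H cDC2 (-0.78 ± 0.19). Both calls were lost without H/H cDC2 replicate 2 or without H/H hybrid replicate 1, and that of Ifit1 also without H/H hybrid replicate 2. The adjusted p over the alternatives reached 0.277 for Ifit1 and 0.109 for Ddx58. With the Xist term 22 genes were higher and 4 lower. Between hybrid cells of the 2 genotypes, edgeR called 0 of 36 in H/H against H/+ hybrid cells (0% and 0.131% of all tested genes were higher and lower), 2 had an unadjusted p below 0.05, DESeq2 called 0, and the fitted log2 fold changes ran from -0.81 to 0.39. With the Xist term 1 gene was called lower.

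Loss of Nfil3, a transcriptional repressor of the bZIP family, came with higher levels of part of the set in H/H cDC1. Zbp1 had 77.8 and 83.5 CPM in H/H Nfil3-/- cDC1 and 28.6 and 30.8 CPM in H/H cDC1, and Ifit1 had 20.7 and 24.9 CPM in H/H Nfil3-/- cDC1 and 7.73 and 10.7 CPM in H/H cDC1. Neither gene's groups overlapped, with log2 fold changes of 1.44 ± 0.13 (adjusted p = 8.88e-06) and 1.30 ± 0.26 (adjusted p = 0.0138). In all 10 of 36 genes were higher and 0 lower, against 1.34% and 1.69% of all tested genes: Rtp4, Zbp1, Ifit1, Oasl2, Isg15, Oas1a, Isg20, Stat2, Lgals3bp and Parp14, with a median of 0.54 over the 36. Ifit1bl1 went the other way without being called, at 39.7 and 40.7 CPM in H/H Nfil3-/- cDC1 and 55.8 and 58.6 CPM in H/H cDC1 (-0.51 ± 0.19).
The count was 1 without Nfil3-/- cDC1 replicate 2 and 3 without H/H cDC1 replicate 1, while DESeq2 called 18. That Nfil3-/- library is the only one of the 4 with Xist, and with the Xist term 7 genes were higher and 1 lower, with a median of 0.42. Against WT cDC1, 32 of the 36 genes were higher in H/H Nfil3-/- cDC1 (6.59% of all tested genes) and 0 lower (4.97%), with Mx1, Mx2, Trim30a and Bst2 not called.

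Among hybrid cells without Nfil3, 5 of 36 genes were higher and 0 lower, against 1.93% and 1.8% of all tested genes. Zbp1 had 84.6 and 88.9 CPM in H/H Nfil3-/- hybrid cells and 41.5 and 37.7 CPM in H/H hybrid cells, a log2 fold change of 1.13 ± 0.13 (adjusted p = 8.97e-05), and Stat2 had 143 and 153 CPM in H/H Nfil3-/- hybrid cells and 82.9 and 92.0 CPM in H/H hybrid cells (0.76 ± 0.18, adjusted p = 0.0349). Both were without overlap, and the other 3 were Oasl2, Bst2 and Parp9. The count was 1 without any 1 of the 4 libraries and 13 with DESeq2, and with the Xist term 1 gene was higher and 1 lower. Whether the loss acted differently in hybrid cells and in cDC1 was tested as an interaction, in which edgeR called 0 of 36 genes (0% and 0.00689% of all tested genes were higher and lower), 2 had an unadjusted p below 0.05 and DESeq2 called 0.

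Markers of other cells moved with the loss of Nfil3. The 9 neutrophil markers summed to 28.7 to 36.5 CPM in H/H Nfil3-/- cDC1, with none at 0, and 0.447 to 0.461 CPM in H/H cDC1, with Ly6g, Retnlg, Camp and Elane at 0. They summed to 51.7 to 98.1 CPM in H/H Nfil3-/- hybrid cells and 4.18 to 6.04 CPM in H/H hybrid cells. No library of one genotype lay within the other's range of the neutrophil sum in either cell type. Ly6g reached at most 0.137 CPM in any library, near the limit of detection. The highest values in any library were 35.1 CPM for Ngp, 21.4 CPM for S100a8 and 19.3 CPM for Ltf. The neutrophil sums thus held almost no Ly6g. The 10 cDC2 markers were at 132 to 146 CPM in H/H Nfil3-/- cDC1 and 320 to 564 CPM in H/H cDC1, and at 861 to 989 CPM in H/H Nfil3-/- hybrid cells and 1585 to 2034 CPM in H/H hybrid cells. The 10 cDC1 markers were at 4944 to 5042 CPM in H/H Nfil3-/- cDC1 and 3208 to 3382 CPM in H/H cDC1, and at 3812 to 4105 CPM in H/H Nfil3-/- hybrid cells and 2140 to 2222 CPM in H/H hybrid cells. Which cells made these marker transcripts, and their part in the difference of the 36 genes, was not tested.

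Zeb2 encodes a zinc-finger transcription factor, and its -165d123 allele gave no call. Ifit3 had 48.9 and 115 CPM in H/H Zeb2 -165d123 hybrid cells and 69.1 and 67.5 CPM in H/H hybrid cells, and Isg15 had 43.6 and 68.6 CPM in H/H Zeb2 -165d123 hybrid cells and 49.5 and 47.4 CPM in H/H hybrid cells. The groups overlapped for both, and the 2 Zeb2 -165d123 libraries stood far apart, the one with Xist above the one without. edgeR called 0 of 36 genes (2.23% and 1.79% of all tested genes were higher and lower), 5 had an unadjusted p below 0.05 and DESeq2 called 1. The fitted log2 fold changes ran from -0.67 for Ifi27l2a to 0.95 for Cmpk2. Without Zeb2 -165d123 hybrid replicate 1, 8 genes were called higher, without the filter on low counts 5, and with the Xist term 1 was called lower.

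Irf8 itself fell in the cDC1 groups. It had 837 and 831 CPM in H/H cDC1, 1221 and 1091 CPM in H/+ cDC1 and 2580 and 1960 CPM in WT cDC1, with log2 fold changes over WT of -1.44 ± 0.13 in H/H and -0.97 ± 0.13 in H/+. Hybrid cells had 544 and 580 CPM in H/H and 394 and 405 CPM in H/+ mice, and the cDC2 libraries had 47.9 to 109 CPM. Among cDC1 groups of experiment 1 the set was higher where Irf8 was lower, but cDC2, with the lowest Irf8, were below the hybrid cells in the set's mean level. H/H Nfil3-/- cDC1 and H/H cDC1 had like Irf8 levels, at 684 and 545 and at 576 and 647 CPM, and differed in 10 of the 36 genes. The part of Irf8 in these differences was not tested.

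Libraries with Xist had higher levels of many of the genes, a comparison made after the values were seen. In experiment 1 the mean log2 CPM of the set was higher in replicate 2, with Xist, than in replicate 1, without it, in all 8 groups, by 0.151 to 0.421. In experiment 2 it was higher by 0.191 to 0.656 in the 3 groups with 1 library of each kind, and in the 3 groups without Xist replicate 2 less replicate 1 was -0.150 to -0.000934. Over the groups of experiment 1, 19 of 36 genes were higher with Xist and 0 lower, against 1.48% and 1.78% of all tested genes, and 33 differences were positive. Ifi44 differed by 0.98 ± 0.09 on the log2 scale and Isg15 by 0.46 ± 0.05 (adjusted p = 8.27e-05), while Stat2 differed by -0.02 ± 0.07. In experiment 2, 1 gene (Ifi27l2a, 0.87 ± 0.14, adjusted p = 0.0218) was higher and 0 lower, against 0.0414% and 0.0621% of all tested genes, 20 had an unadjusted p below 0.05 and all 36 differences were positive. That call was lost without any 1 of the Nfil3-/- cDC1 or Zeb2 -165d123 libraries. Each of the 8 groups of experiment 1 has 1 library of either kind, so Xist does not separate the groups compared there.

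**Figure D5:**
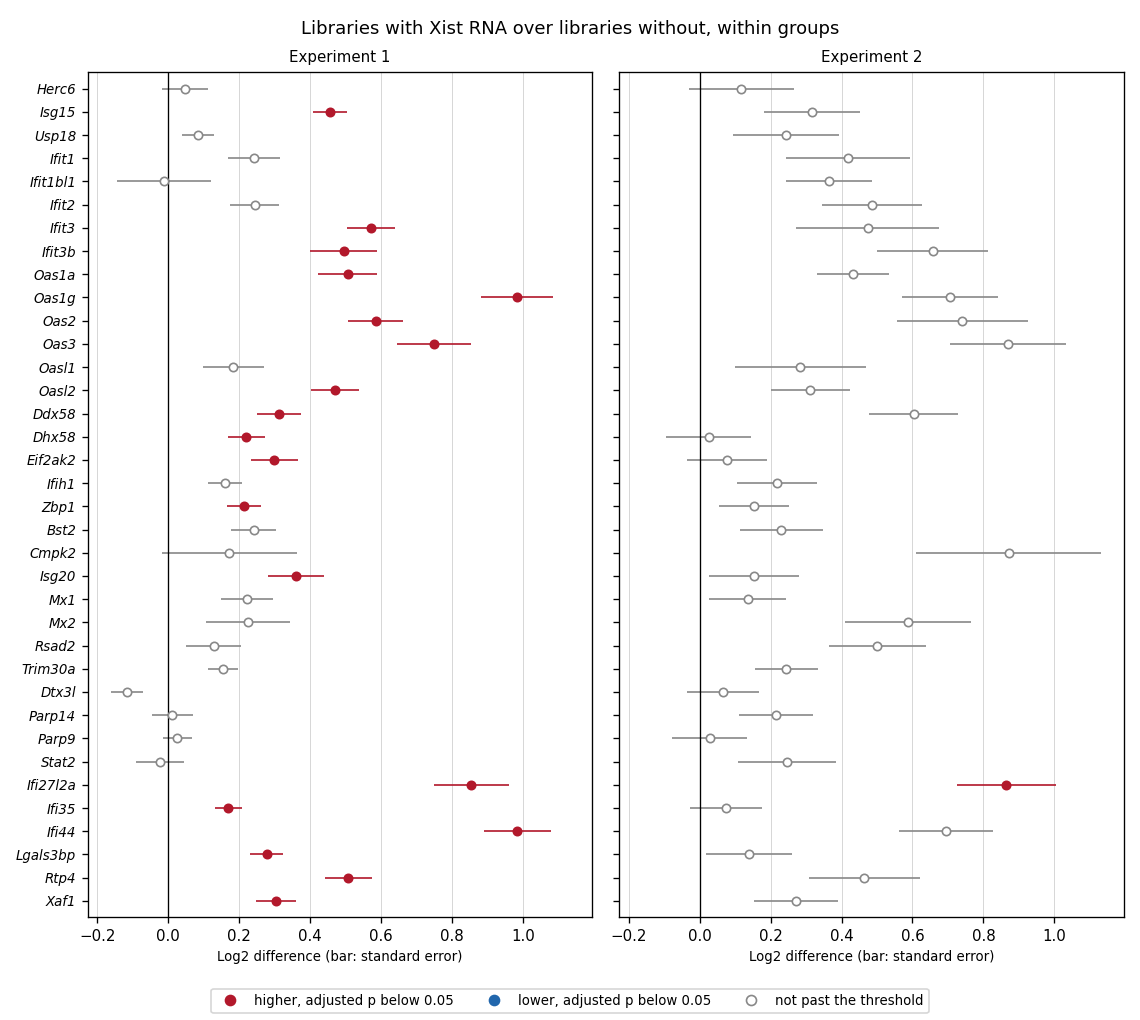
Difference in log2 CPM between libraries with and without Xist RNA within groups, with its standard error, for each of the 36 genes in experiment 1 (8 groups, left) and experiment 2 (3 groups with 1 library of either kind, right); filled points passed an adjusted p of 0.05. In experiment 1, 33 of 36 differences are positive and 19 passed, with Ifi44 and Oas1g highest (0.98 each); in experiment 2 all 36 are positive and 1 passed.

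Other genes of the pathway were read from lists, whose counts stand beside 2.7% higher and 1.47% lower among all tested genes of experiment 1 and 4.37% and 1.94% of experiment 2. Of 12 genes of interferon receptors and signalling, 0 were higher or lower in H/H than in WT cDC1 of experiment 1 and 1 was higher in experiment 2. That gene was Ifnar2, a receptor chain (0.28 ± 0.17, adjusted p = 0.488, and 0.44 ± 0.13, adjusted p = 0.0495). Irf7, which amplifies interferon production, differed by 0.60 ± 0.24 (adjusted p = 0.253) and 0.57 ± 0.28. Of 9 IRF genes, Irf4 was higher (1.84 ± 0.29 and 2.19 ± 0.32) and Irf8 lower in both experiments. Of 17 tested genes of nucleic acid sensing and interferon induction, Sting1 was higher and Tlr3 lower in both, and Aim2 and Tlr7 were higher in experiment 2. Of 16 genes that restrain interferon signalling, Ptpn6 was higher in both, Irf2bp2 in experiment 1 and Tnfaip3 in experiment 2.

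Among 48 tested interferon-stimulated genes outside the set, 17 were higher and 0 lower in H/H than in WT cDC1 of experiment 1, and 18 were higher and 0 lower in experiment 2 (of all tested genes, 2.7% and 1.47% in experiment 1 and 4.37% and 1.94% in experiment 2). Ddx60, a helicase related to the RNA sensors, changed by 3.76 ± 0.29 and 3.88 ± 0.46 on the log2 scale, and Ifitm3, a membrane protein that blocks entry of virus, by 2.12 ± 0.22 and 2.79 ± 0.13. Of 16 tested genes led by type II interferon, 4 were higher and 0 lower in experiment 1 (Gbp3, Gbp4, Gbp7 and Irgm1), and 5 were higher and 1 lower, Cxcl9, in experiment 2. None of the 21 interferon ligand genes passed the filter on low counts. Of these, 8 were at 0 in every library, and Ifnb1 did not exceed 6 counts in a library or Ifng 11, so their RNA was at or near the limit of detection in the sorted cells.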

How the data were processed

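RNA from sorted spleen cells (10 ng, RIN above 9) was amplified and sequenced, per the labels' protocols. The authors deposited expected counts per Ensembl gene, 1 table per experiment, and bcl2fastq, DRAGEN and edgeR are named in the submitters' processing notes; build, annotation and strand of counting are not given in the sources used here. Identical repeated lines (287 of 55774) were dropped, leaving 55487 genes, and counts were rounded, since 10.8% and 10.2% of values were not whole.

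Each experiment was fitted alone with all its groups by edgeR 4.0.16 in R 4.3.3 (filterByExpr, TMM, robust quasi-likelihood test), with Benjamini-Hochberg adjustment over all 16036 or 14504 tested genes and a threshold of 0.05. Genes are called higher or lower only past it. SE is the size of the log2 fold change divided by the root of F. CPM uses TMM library sizes, and log2 CPM a prior count of 2. The fits had 8 and 6 residual degrees of freedom and a median biological coefficient of variation of 0.150 and 0.138. With 2 libraries a group, the spread is shared over the groups. The series text calls the duplicates biological, and nothing says that equal replicate numbers mark the same animal, so p-values measure the spread between these libraries. Floors cover counting error only.

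The 36 genes and all lists were chosen with earlier results of these data known. Values are given for 12 genes that stand for the roles (Ifit1, Ifit3, Ifit1bl1, Oas1a, Oasl2, Isg15, Usp18, Mx1, Rsad2, Stat2, Bst2, Eif2ak2) and for up to 4 called genes per comparison with the largest change and at least 5 CPM in the higher group. Other genes named by value (Ifi35, Trim30a, Cmpk2, Oas3, Herc6, Ifi27l2a, and Ifit2 outside H/+ against WT cDC1) were chosen after their values were seen. Alternatives were DESeq2 1.42.0 (test, size factors), no filter, only the groups compared, the replicate block, each library left out and a term for libraries with Xist (over 10 CPM). Counts under these alternatives, and counts by unadjusted p, were made for the 36 genes only, without the share of all tested genes. The comparison by Xist itself was chosen after seeing the data. Gene positions were taken by ID from GENCODE M21, which held 99.4% of the gene IDs. Markers of T and NK cells summed to 5.77 to 49.0 and 0.499 to 4.37 CPM over all libraries.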

Additional observations from a re-analysis of the deposited data

Results flagged for a closer look

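The effect of 2 altered enhancer copies differed between cDC1 and cDC2 by the interaction test, which takes H/H less WT in cDC1 minus H/H less WT in cDC2. edgeR's quasi-likelihood test called 18 of the 36 genes, all with a larger effect in cDC1, where 1.4% of all tested genes had a larger and 0.505% a smaller effect. Among the genes given by value, the differences on the log2 scale were 5.91 ± 0.72 (SE) for Ifit3b (adjusted p = 0.000863), 3.79 ± 0.61 for Ifit3 (adjusted p = 0.0109), 3.77 ± 0.59 for Rtp4 (adjusted p = 0.00666), 3.69 ± 0.55 for Oas1a (adjusted p = 0.00737) and 3.57 ± 0.39 for Ifit1bl1 (adjusted p = 0.000319). They were 3.56 ± 0.48 for Oasl2 (adjusted p = 0.00296), 3.02 ± 0.30 for Ifit1 (adjusted p = 3.64e-05), 1.91 ± 0.24 for Rsad2 (adjusted p = 0.000382) and 1.05 ± 0.14 for Usp18 (adjusted p = 0.000716). Ifit3b and Rtp4 rest on 6 and 24 counts in WT cDC1.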

How the results depend on the processing

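Of 292 calls of a gene in a comparison, 0 reversed under any alternative. DESeq2 ended 0 of the 292, DESeq2 size factors 3, no filter on low counts 16, only the groups compared 22 of 272, the replicate block 9 of 273, the Xist term 9 of 272 and leaving out 1 library 342 of 1476. Of 127 alternative counts 101 were within 1.5 times the first. Those outside it were as follows, with the cause not tested. With the replicate block, counts were 24 for H/+ against WT cDC1 (12 without it), 22 for H/H against H/+ cDC1 (3), 21 for H/H hybrid against H/H cDC1 of experiment 1 (12), 1 for H/H against H/+ hybrid (0; lower), 2 for Nfil3-/- hybrid (5) and 0 for Xist in experiment 2 (1). The Xist term gave 24, 22, 21, 1 (lower) and 2 (1 higher, 1 lower) for the first 5 of these, and 1 (lower) for Zeb2 -165d123 hybrid (0). Without the filter they were 10 for H/H against H/+ cDC1, 1 for H/+ against WT cDC2 (0), 22 for Nfil3-/- cDC1 (10), 16 for Nfil3-/- hybrid, 5 for Zeb2 -165d123 hybrid, 1 for the Nfil3-/- interaction (0) and 9 for Xist in experiment 2. DESeq2 gave 12 for H/H against H/+ cDC1, 18 for Nfil3-/- cDC1, 13 for Nfil3-/- hybrid, 1 for Zeb2 -165d123 hybrid and 5 for Xist in experiment 2. With only the groups compared, counts were 1 for H/H against H/+ cDC1 and 21 for Nfil3-/- hybrid. Over all genes, deviations of same-numbered libraries correlated at 0.0398 to 0.342, all positive, over 28 pairs of groups in experiment 1 and at -0.205 to 0.231 over 15 in experiment 2, which does not establish pairing, so the block is given here only; in experiment 1 it is the same split as Xist.

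With 1 library left out, counts in experiment 1 were 27 to 29 for WT cDC1 against WT cDC2, 14 to 17 for H/H cDC1 against H/H cDC2, 4 to 9 for H/+ against WT cDC1, 19 to 23 for H/H against WT cDC1, 0 to 4 for H/H against H/+ cDC1, and 0 for both cDC2 comparisons and for H/H against H/+ hybrid. They were 18 to 23 and 8 to 15 for H/+ hybrid against H/+ cDC1 and cDC2, 8 to 9 and 12 to 14 for H/H hybrid against H/H cDC1 and cDC2, 14 to 17 for the interaction and 14 to 20 for Xist. In experiment 2 they were 21 to 22 for H/H against WT cDC1, 6 to 8 for H/H hybrid against H/H cDC1, 1 to 7 and 27 to 30 for Nfil3-/- cDC1 against H/H and WT cDC1, 1 for Nfil3-/- hybrid, 0 to 8 for Zeb2 -165d123 hybrid, 0 for the Nfil3-/- interaction and 0 to 4 for Xist. The lone library of a group is then assumed to vary like the others. Genes under about 25 counts in WT cDC1 are limited by depth.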
